A study of Homo sapiens with 18 samples.

Results

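The transcripts described here are those of 10 genes of the early transcriptional response: the AP-1 genes FOS, FOSB, FOSL2, JUN, JUNB and JUND, the related factor ATF3, and the immediate early genes EGR1, IER2 and IER3. They were chosen by name out of 61806 genes in the count table, together with the observation that FOS was high in the APOA4-KO line. The FOS values of that line are therefore given as a description, without p-values. All 10 had counts in every group, and all 10 passed the filter on low counts that left 19743 genes. HepG2 is a human hepatoma cell line. APOA4-KO is a HepG2 derivative in which APOA4, the gene of apolipoprotein A-IV, was edited with CRISPR-Cas9 guides and from which a single colony was expanded. Poly(A) RNA was sequenced from unedited HepG2 (genotype WT) and from APOA4-KO before hypoxia (0 h, untreated) and after 24 h and 48 h of hypoxia, with 3 libraries for each of the 6 groups. All 18 libraries came from HepG2 cells, and no normoxic cells were sampled at 24 h or 48 h, so hypoxia and time in culture cannot be told apart. The edited cells are 1 line, so the edit and other features of that line cannot be told apart either. Nothing in the sample labels says that the 3 libraries of a group came from separate cultures, so the p-values measure the spread between these libraries, which may be technical.

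AP-1 is a dimer of basic leucine zipper proteins, built from a JUN family protein and a partner that is often of the FOS family or an ATF protein such as ATF3. JUN proteins can pair with each other, whereas FOS proteins need a JUN partner. Immediate early genes are transcribed within minutes of a growth factor, cytokine or stress signal from factors that already sit in the cell. Their transcripts are usually short-lived, and their level reflects the time after a signal as well as its strength. In liver, FOS, JUN and EGR1 are known for their rapid induction after partial hepatectomy and injury.

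Depth was alike in the 18 libraries, from 76481820 to 91604947 counts. In all libraries the small counts 4, 8 and 12 occurred more often than the counts next to them, so 1 count cannot be read as 1 pair of reads. APOA4 was read in every library. Its mean level was 9.03 CPM (the count scaled to the TMM-adjusted library total) in HepG2 and 7.71 CPM in APOA4-KO at 0 h, and 20.1 CPM against 8.21 CPM at 48 h, a log2 fold change of -1.29 (adjusted p = 9.0e-11, edgeR). At 0 h the log2 fold change was only -0.23 (adjusted p = 0.040). Counts over the whole gene do not show where in the gene the reads lay, so the edit itself was not checked. All 11 hepatocyte and hepatoma markers were present in every library, with ALB at 4021 to 5713 FPKM (the deposited values, scaled for gene length and library total). Not all were as steady: AFP ran from 39.8 to 480.4 FPKM, FGB from 22.9 to 194.7 FPKM and TTR from 19.0 to 78.6 FPKM. Of 4 fibroblast markers, COL1A2, DCN and LUM stayed at or below 0.59 FPKM and PDGFRB was read at 3.71 to 6.88 FPKM. Of 3 endothelial markers, CDH5 stayed at or below 0.41 FPKM, VWF was at 0.24 to 0.79 FPKM and PECAM1 at 0.60 to 1.07 FPKM. Of 4 leukocyte markers, PTPRC and CD3E stayed at or below 0.49 FPKM, whereas CD68 was read at 12.9 to 30.7 FPKM and LYZ at 600.4 to 1459 FPKM. The sum of the leukocyte list, which LYZ dominates, was 684 to 719 FPKM in HepG2 and 1448 to 1488 FPKM in APOA4-KO at 48 h, and its part in the results was not tested. In bulk RNA, fewer cells of a type and less RNA per cell cannot be told apart.

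The promoter sequence upstream of 5 members is shown. FOS, whose values chose the list, FOSB and EGR1 were more than 4-fold higher in APOA4-KO at 48 h. So were IER3, FOSL2 and JUNB, which are not shown. JUND and IER2 were 1.61-fold and 1.17-fold higher. The letters are those of RefSeq (GRCh38.p14), 5′ to 3′ on the strand of the gene, ending at the start of the gene in RefSeq or, for FOS and FOSB, 54 bases and 1 base earlier, where the gene starts in GENCODE 29. FOS lies at chr14:75278578-75278773 on the plus strand, FOSB at chr19:45467746-45467994 (plus), EGR1 at chr5:138465229-138465478 (plus), JUND at chr19:18281623-18281872 (minus) and IER2 at chr19:13150161-13150410 (plus). Capitals mark TGACG or its complement CGTCA (the half-site of the cyclic AMP response element, complete as TGACGTCA), TATAAA (the TATA box) and the CArG box, the core bound by serum response factor.
FOS: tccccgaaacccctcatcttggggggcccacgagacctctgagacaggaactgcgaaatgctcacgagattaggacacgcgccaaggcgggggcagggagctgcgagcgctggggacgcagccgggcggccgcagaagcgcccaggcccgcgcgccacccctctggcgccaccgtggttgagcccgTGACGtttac
FOSB: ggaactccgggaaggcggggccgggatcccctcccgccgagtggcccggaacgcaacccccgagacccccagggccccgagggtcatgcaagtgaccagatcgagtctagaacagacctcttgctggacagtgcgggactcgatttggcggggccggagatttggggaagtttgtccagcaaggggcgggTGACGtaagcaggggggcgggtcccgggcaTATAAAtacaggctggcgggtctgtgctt
EGR1: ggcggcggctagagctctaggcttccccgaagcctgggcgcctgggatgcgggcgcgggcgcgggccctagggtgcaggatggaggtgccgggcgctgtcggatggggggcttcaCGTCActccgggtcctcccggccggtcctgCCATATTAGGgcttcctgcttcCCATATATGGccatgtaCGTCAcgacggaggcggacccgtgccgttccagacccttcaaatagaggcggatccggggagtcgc
JUND: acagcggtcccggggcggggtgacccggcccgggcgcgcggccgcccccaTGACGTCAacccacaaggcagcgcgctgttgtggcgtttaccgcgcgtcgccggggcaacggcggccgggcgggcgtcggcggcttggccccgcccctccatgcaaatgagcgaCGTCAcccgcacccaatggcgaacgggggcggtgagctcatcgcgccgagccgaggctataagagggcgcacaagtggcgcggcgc
IER2: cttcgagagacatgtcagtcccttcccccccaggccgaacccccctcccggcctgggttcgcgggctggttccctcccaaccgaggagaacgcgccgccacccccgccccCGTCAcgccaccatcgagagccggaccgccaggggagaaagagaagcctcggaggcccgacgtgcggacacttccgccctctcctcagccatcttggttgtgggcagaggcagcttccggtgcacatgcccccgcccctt
Windows of 300 bases, from 250 before to 50 after the RefSeq start, were searched on both strands for 9 of the 10 members, all but IER3. TGACG was found in 8 of the 9 members and in 24.6% of 35116 windows of all genes. In FOS it lay at positions -64 to -60 from the start, and in FOSB at -60 to -56. TATAAA was found in FOS, FOSB, JUNB and ATF3, against 11.5% of all windows. It followed the half-site in FOSB at -30 to -25 and in FOS at -33 to -28, among the bases left off the FOS sequence shown. In JUNB it lay at -31 to -26. In ATF3 it was found only in a second window of that gene, at -230 to -225, further upstream than in the others. Within these windows, CArG boxes were found in EGR1 alone of the 9 members, at -105 to -96 and -83 to -74, and in 1.29% of all windows. Bases further upstream were not searched, so a CArG box there would have been missed in FOS and the other members. The complete TGACGTCA, which contains the half-site on both strands, was found in JUND alone (1.85% of all windows), and TGANTCA, the AP-1 site itself, in FOSL2 alone (7.71% of all windows). The members with and without a large difference between the lines were not told apart by TGACG, which both EGR1 and IER2 held.

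Per length of the gene, IER3 was the most abundant of the 10 transcripts in every group, and FOSB was the least abundant, at 0.15 to 1.04 FPKM in the group means. In HepG2 at 0 h, the mean was 94.9 FPKM for IER3, 64.3 FPKM for JUND, 15.2 FPKM for JUN and 12.8 FPKM for IER2, against 0.277 FPKM for FOS and 0.227 FPKM for FOSB. In APOA4-KO at 48 h, IER3 reached 949 to 982 FPKM and FOS 5.42 to 5.87 FPKM, above ATF3 at 2.40 to 3.11 FPKM. The 48 h libraries of APOA4-KO held the highest CPM of 8 of the 10 genes. The exceptions were ATF3 and IER2, both highest in HepG2 at 24 h. Between the lowest and the highest group mean, the CPM differed 22.02-fold for FOS, 12.50-fold for IER3, 7.56-fold for FOSB, 6.28-fold for FOSL2, 5.12-fold for EGR1, 4.96-fold for JUNB and 4.60-fold for JUN, and 2.18-fold for ATF3, 2.02-fold for JUND and 1.44-fold for IER2.

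**Figure D1:**
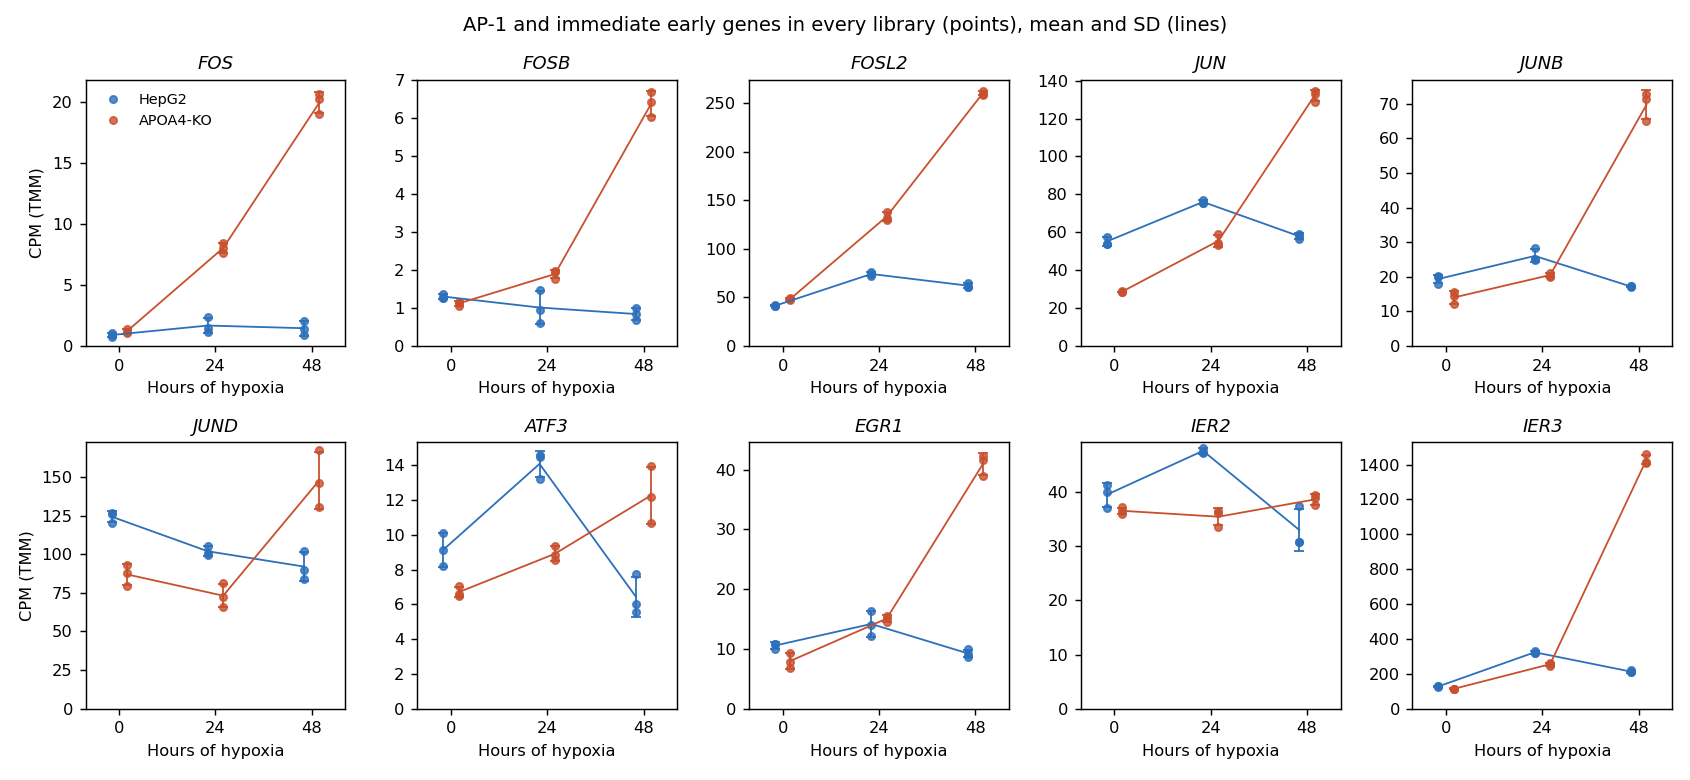
Level of each of the 10 genes in CPM (TMM scaled, linear axis from 0, own scale for each gene) against hours of hypoxia in HepG2 (blue) and APOA4-KO (orange). Points are the 3 libraries of a group and lines join the means, with SD as bars; FOS goes from 1.21 CPM at 0 h to 20.0 CPM at 48 h in APOA4-KO, whereas IER2 stays between 33.0 and 47.6 CPM in all 6 group means.

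FOS (ENSG00000170345) is at chr14:75278774-75282230 on the plus strand (GRCh38, GENCODE 29, like the positions that follow) and encodes the founding FOS protein, which pairs with JUN proteins. At 0 h its counts were 74, 88 and 65 in HepG2 and 82, 129 and 102 in APOA4-KO. After 24 h they were 115, 106 and 196 in HepG2 and 677, 660 and 621 in APOA4-KO, and after 48 h they were 82, 121 and 190 in HepG2 and 1461, 1444 and 1488 in APOA4-KO. The libraries of the 2 lines overlapped at 0 h and were widely apart at 24 h and 48 h. In APOA4-KO the mean level was 1.21 ± 0.203 CPM (SD, n = 3) at 0 h, 8.05 ± 0.408 CPM at 24 h and 20.0 ± 0.860 CPM at 48 h. This was 16.4-fold the 0 h level at 48 h, and 13.6-fold the HepG2 level of the same time. In HepG2, FOS was 0.908 ± 0.143 CPM at 0 h, 1.69 ± 0.613 CPM at 24 h and 1.47 ± 0.612 CPM at 48 h. Its log2 fold change in HepG2 was 0.89 after 24 h (adjusted p = 0.015) and 0.69 over the whole 48 h (adjusted p = 0.063), both short of the size limit of 1. In the order of group means, the 3 HepG2 groups and APOA4-KO at 0 h overlapped from neighbour to neighbour, and the 2 hypoxic APOA4-KO groups stood apart from them and from each other.

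FOSB (ENSG00000125740, chr19:45467995-45475179, plus strand) encodes a FOS protein that is also known for its stable short form in neurons. HepG2 libraries held counts of 107, 114 and 105 before hypoxia, then 74, 55 and 121 at 24 h, then 79, 85 and 62 at 48 h. APOA4-KO libraries held 92, 103 and 92 before hypoxia, then 149, 154 and 158 at 24 h, then 481, 488 and 434 at 48 h. The 48 h libraries of APOA4-KO were the highest of all 18, and the HepG2 libraries of 24 h spread over more than those of any other group. At 48 h the means were 6.38 ± 0.324 CPM in APOA4-KO and 0.844 ± 0.163 CPM in HepG2.

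FOSL2 (ENSG00000075426, chr2:28392448-28417312, plus strand) encodes FRA2, a FOS relative without the strong activation domain of FOS. Its level in HepG2 was 41.2, 42.2 and 40.9 CPM at 0 h, 72.0, 76.5 and 73.9 CPM at 24 h, and 61.0, 60.4 and 65.1 CPM at 48 h. In APOA4-KO it was 48.1, 47.8 and 49.9 CPM at 0 h, 138, 129.7 and 132 CPM at 24 h, and 258, 263 and 259 CPM at 48 h. The 6 groups did not overlap at any step of their order. Among the members other than FOS, FOSL2 alone was thus higher in APOA4-KO than in HepG2 at an adjusted p under 0.05 at each of the 3 times.

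JUN (ENSG00000177606, chr1:58780788-58784327, minus strand) encodes the partner of FOS in classical AP-1 and is itself a target of AP-1. In HepG2 it was read at 54.0, 57.6 and 53.8 CPM at 0 h, 75.7, 77.0 and 75.4 CPM at 24 h, and 59.3, 58.1 and 56.4 CPM at 48 h. In APOA4-KO the values were 28.7, 28.7 and 28.8 CPM at 0 h, 53.3, 59.1 and 54.2 CPM at 24 h, and 129, 135 and 133 CPM at 48 h. JUN was therefore lower in APOA4-KO than in HepG2 at 0 h and at 24 h and higher at 48 h, without overlap at any of the 3 times. JUNB (ENSG00000171223, chr19:12791496-12793315, plus strand), whose product can oppose JUN in cell growth, followed the same order. JUNB was read at 15.6, 12.1 and 14.4 CPM in APOA4-KO and 19.9, 20.3 and 17.99 CPM in HepG2 at 0 h, and at 71.4, 72.7 and 65.0 CPM and 16.9, 17.4 and 17.3 CPM, respectively, at 48 h. Of its exon bases, 259 (14.2%) are shared with HOOK2 on the opposite strand, and since the strand setting of the counting is not stated, reads of HOOK2 (808 to 1698 counts) may be counted in part with JUNB. JUND (ENSG00000130522, chr19:18279760-18281622, minus strand), the JUN family member that is expressed broadly in resting cells, was at 127, 126 and 120.0 CPM in HepG2 and 79.6, 87.9 and 93.3 CPM in APOA4-KO at 0 h. At 48 h it was at 89.5, 84.2 and 102 CPM in HepG2 and 167, 146 and 131 CPM in APOA4-KO. The groups of JUND did not overlap at either time, but the order of the lines was opposite.

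ATF3 (ENSG00000162772, chr1:212565334-212620777, plus strand) encodes a stress-induced factor that can dimerize with JUN proteins and often represses. It was read at 10.1, 8.18 and 9.10 CPM in HepG2 at 0 h, 14.5, 14.6 and 13.2 CPM at 24 h, and 6.01, 7.75 and 5.58 CPM at 48 h. In APOA4-KO it was at 6.49, 6.57 and 7.04 CPM at 0 h, 8.83, 8.53 and 9.36 CPM at 24 h, and 12.2, 10.7 and 13.9 CPM at 48 h. ATF3 thus peaked at 24 h in HepG2 and was highest at 48 h in APOA4-KO, and those 2 groups overlapped. EGR1 (ENSG00000120738, chr5:138465490-138469315, plus strand), a zinc finger factor that is a classical immediate early gene, was at 10.9, 10.9 and 9.98 CPM in HepG2 at 0 h, 12.2, 14.0 and 16.4 CPM at 24 h, and 8.70, 9.92 and 9.21 CPM at 48 h. In APOA4-KO it was at 9.35, 7.87 and 6.77 CPM at 0 h, 15.5, 15.2 and 14.5 CPM at 24 h, and 42.3, 38.9 and 41.6 CPM at 48 h. The lines overlapped at 24 h, and at 48 h every APOA4-KO library lay far above every HepG2 library.

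IER3 (ENSG00000137331, chr6:30743199-30744554, minus strand) encodes a short-lived protein that acts on cell survival and ERK signalling. Its counts were 10838, 10426 and 10819 in HepG2 and 9146, 10412 and 9703 in APOA4-KO at 0 h, and 24777, 29520 and 26293 in HepG2 and 20864, 20513 and 20826 in APOA4-KO at 24 h. At 48 h they were 20706, 17779 and 18866 in HepG2 and 101589, 110691 and 101710 in APOA4-KO. The lines were close up to 24 h and then parted, and IER3 had by far the highest counts behind its values of all 10 members. Of its exon bases, 359 (26.5%) are shared with IER3-AS1 on the opposite strand, which had only 14 to 53 counts. IER2 (ENSG00000160888, chr19:13150415-13154908, plus strand), which encodes a small nuclear protein of the early growth factor response, was read at 41.4, 40.1 and 37.1 CPM in HepG2 and 36.5, 36.0 and 37.2 CPM in APOA4-KO at 0 h. At 48 h it was at 30.8, 30.8 and 37.5 CPM in HepG2 and 39.4, 39.0 and 37.6 CPM in APOA4-KO. IER2 therefore moved little, and its 48 h groups were separated by a narrow gap in CPM and overlapped in FPKM.

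The first comparison asks whether the lines differed before hypoxia. A gene counts as changed where its log2 fold change is 1 or more in size and its p from edgeR's quasi-likelihood test, adjusted by Benjamini-Hochberg over the 19743 genes, is under 0.05. FOS is left out of the counts between the lines, which concern the 9 other members. At 0 h, none of the 9 was changed, against 4.31% of all genes. Whatever their size of change, 6 were lower in APOA4-KO at an adjusted p under 0.05 (17.6% of all genes) and 1, FOSL2, was higher (12.9% of all genes). JUN was furthest below, with a log2 fold change of -0.94 (95% interval -1.03 to -0.86, adjusted p = 1.9e-12). JUND was at -0.52 (adjusted p = 1.3e-04), JUNB at -0.47 (adjusted p = 1.1e-04), ATF3 at -0.45 (adjusted p = 0.0069) and EGR1 at -0.40 (adjusted p = 0.0065). IER3 was at -0.17 (adjusted p = 9.7e-05), and FOSL2 was at 0.23 (adjusted p = 4.1e-05). The median log2 fold change over the 9 was -0.40, against -0.01 over all genes.

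After 24 h of hypoxia, none of the 9 was changed either, against 7.77% of all genes, and 8 differed between the lines at an adjusted p under 0.05. FOS, as a description, stood at a log2 fold change of 2.26. FOSB stood at 0.90 (95% interval 0.41 to 1.39, adjusted p = 0.0031) and FOSL2 at 0.85 (95% interval 0.77 to 0.92, adjusted p = 3.2e-13), both short of the size limit. Without the third HepG2 library of 24 h, the highest of its group, FOSB was changed at 1.27. The 3 JUN genes were lower in APOA4-KO, with JUN at -0.45 (adjusted p = 1.1e-08), JUNB at -0.34 (adjusted p = 8.8e-04) and JUND at -0.48 (adjusted p = 1.2e-04). ATF3 was at -0.66 (adjusted p = 9.4e-05), IER2 at -0.43 (adjusted p = 1.2e-05) and IER3 at -0.34 (adjusted p = 3.5e-09). EGR1 was at 0.09 (95% interval -0.13 to 0.31, adjusted p = 0.548). In all, 6 of the 9 were lower (24.6% of all genes) and 2, FOSB and FOSL2, were higher (23.6% of all genes) at an adjusted p under 0.05.

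After 48 h, the 9 other members were all higher in APOA4-KO than in HepG2, without overlap between the libraries in CPM, as were 27.2% of all genes. For IER2 the gap was only from 37.50 to 37.56 CPM. In FPKM its libraries overlapped, at 10.03 to 12.32 FPKM in HepG2 and 11.04 to 11.71 FPKM in APOA4-KO. Of the 9, 6 were changed upwards, against 6.37% of all genes. FOS, as a description, stood at a log2 fold change of 3.77, also without overlap. FOSB was 7.55-fold higher (log2 fold change 2.92, SE 0.24, adjusted p = 5.8e-09) and IER3 6.70-fold higher (2.74, SE 0.03, adjusted p = 1.0e-21). EGR1 was 4.41-fold higher (log2 fold change 2.14, SE 0.11, adjusted p = 3.3e-12), FOSL2 4.19-fold (2.07, SE 0.04, adjusted p = 8.5e-19) and JUNB 4.05-fold (2.02, SE 0.08, adjusted p = 8.5e-14). JUN was 2.28-fold higher (log2 fold change 1.19, SE 0.04, adjusted p = 9.5e-15). The other members were higher by less than the size limit: ATF3 by a log2 fold change of 0.93 (adjusted p = 1.8e-06), JUND by 0.69 (adjusted p = 1.6e-06) and IER2 by 0.23 (adjusted p = 0.0052). With libraries scaled by total count alone, IER2 was at 0.08. The median log2 fold change over the 9 was 2.02, against -0.04 over all genes. These comparisons use the same 48 h libraries of APOA4-KO in which the rise of FOS was seen.

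**Figure D2:**
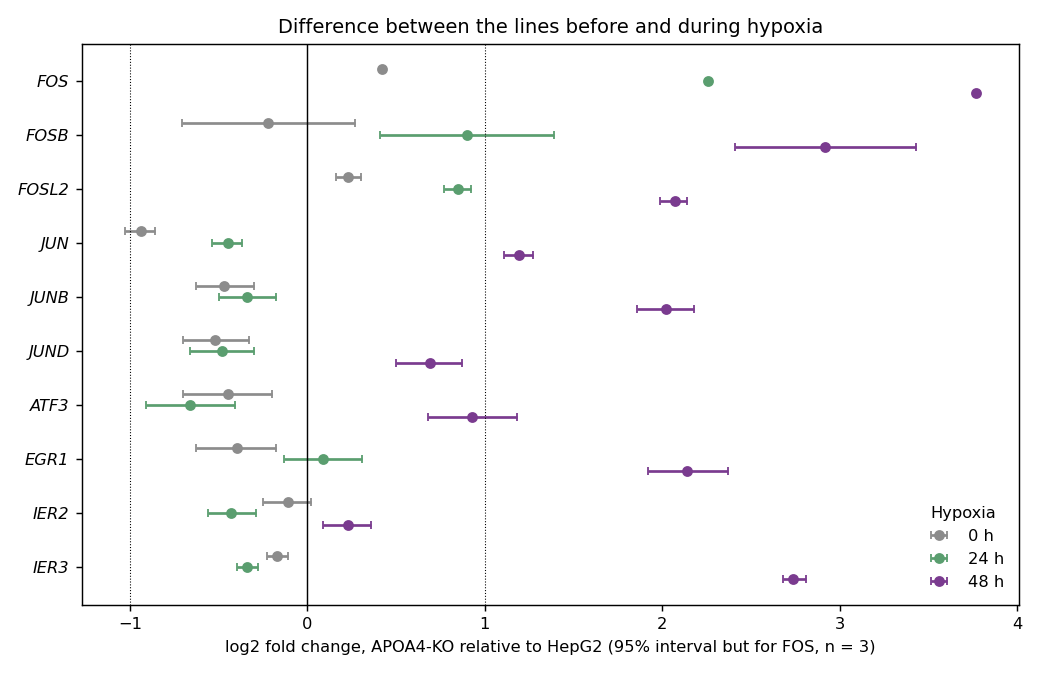
Log2 fold change of APOA4-KO relative to HepG2 for each member at 0 h (grey), 24 h (green) and 48 h (purple), with 95% intervals for all but FOS; dotted lines mark log2 fold changes of -1 and 1. JUN is at -0.94 at 0 h and 1.19 at 48 h, and FOS and 6 other members lie above 1 at 48 h.

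In HepG2 alone, most members were higher after 24 h of hypoxia than before it, and most were lower again at 48 h than at 24 h. At 24 h, 8 of the 10 members were higher than at 0 h at an adjusted p under 0.05, against 11.4% of all genes, and 1, JUND, was lower (18.3% of all genes), at -0.29 (adjusted p = 0.016). One member, IER3, was changed upwards (2.06% of all genes), at 1.34 (95% interval 1.28 to 1.39, adjusted p = 5.6e-17). FOSL2 was at 0.84 (adjusted p = 1.1e-12), ATF3 at 0.62 (adjusted p = 3.7e-04), JUN at 0.46 (adjusted p = 2.9e-08), JUNB at 0.42 (adjusted p = 2.5e-04), EGR1 at 0.42 (adjusted p = 0.0039) and IER2 at 0.27 (adjusted p = 0.0026). FOSB was at -0.36 (adjusted p = 0.293). At 48 h none was changed from 0 h (2.18% of all genes). Only FOSL2, at 0.59 (adjusted p = 3.0e-10), and IER3, at 0.73 (adjusted p = 3.3e-13), were still higher at an adjusted p under 0.05 (13.1% of all genes). ATF3, at -0.5 (adjusted p = 0.0031), JUND, at -0.43 (adjusted p = 7.4e-04), and IER2, at -0.26 (adjusted p = 0.0039), were lower than at 0 h. From 24 h to 48 h, 7 members were lower at an adjusted p under 0.05, against 11.9% of all genes, and none was higher (18.7% of all genes). ATF3 was changed downwards, the only member to be so (1.43% of all genes), with a log2 fold change of -1.13 (95% interval -1.38 to -0.88, adjusted p = 5.4e-07). EGR1 and IER3 were both at -0.61 (adjusted p = 1.5e-04 and 6.0e-12), JUNB at -0.60 (adjusted p = 6.1e-06) and IER2 at -0.53 (adjusted p = 2.6e-06).

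In APOA4-KO the median log2 fold change from 24 h to 48 h was 1.25 over the 9 members other than FOS and -0.05 over all genes. All 10 members had positive values, but IER2 stood at only 0.12, and at -0.01 with libraries scaled by total count alone. These values come from the comparisons that chose the list, so they are given by size alone, without p-values. From 0 h to 24 h, 2 of the 9, FOSL2 at 1.46 and IER3 at 1.16, had a log2 fold change of 1 or more (as had 8.49% of all genes). JUN stood at 0.95 and EGR1 at 0.92, and FOS, as a description, at 2.73. From 24 h to 48 h, 6 of the 9 had a log2 fold change of 1 or more (5.13% of all genes). These were IER3 at 2.48, JUNB at 1.76, FOSB at 1.75, EGR1 at 1.44, JUN at 1.25 and JUND at 1.02. FOS, as a description, stood at 1.31. Over the whole 48 h the number was again 6 of the 9 (9.07% of all genes). These were IER3 at 3.64, FOSB at 2.51, FOSL2 at 2.42, EGR1 at 2.36, JUNB at 2.31 and JUN at 2.20. FOS, as a description, stood at 4.04. The 2 intervals carried different parts of this change. FOS and FOSL2 moved more in the first (2.73 and 1.46) than in the second (1.31 and 0.97), whereas IER3, JUNB, FOSB and JUND moved more in the second. IER2 stayed at -0.04, 0.12 and 0.08 over the first, the second and both intervals.

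**Figure D3:**
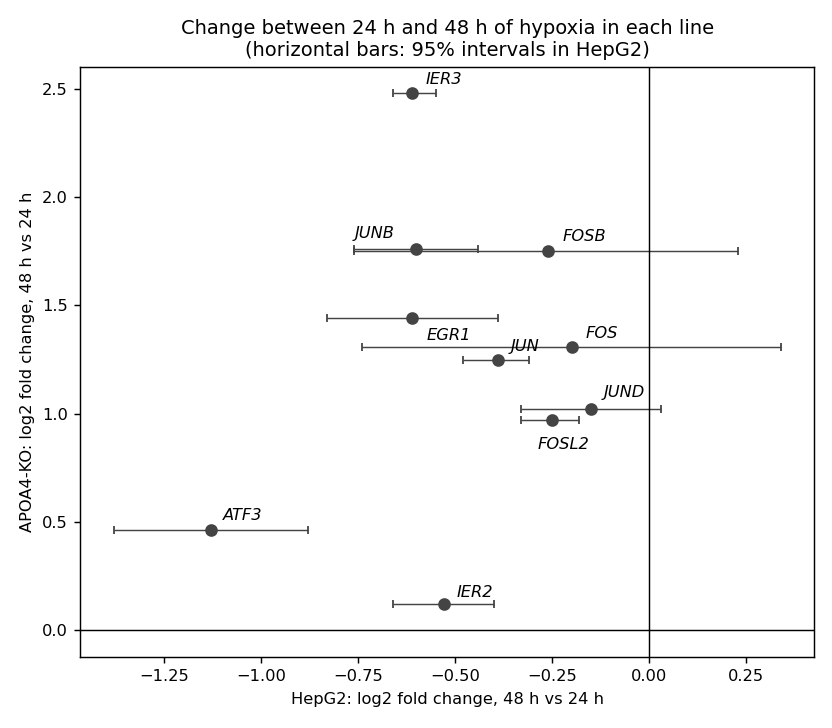
Log2 fold change from 24 h to 48 h of hypoxia in HepG2 (horizontal axis) and in APOA4-KO (vertical axis) for the 10 members, with 95% intervals for HepG2. All 10 points lie to the left of 0 and above 0, from ATF3 at -1.13 and 0.46 to IER3 at -0.61 and 2.48. The HepG2 intervals of FOS, FOSB and JUND include 0. IER2, at -0.53 and 0.12, lies close to the horizontal line at 0.

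Whether the 2 lines responded differently was tested as the difference in the change from 0 h. At 48 h, 8 of the 9 members other than FOS were changed in the direction of APOA4-KO, against 3.43% of all genes. Among the 8 the difference on the log2 scale was between 1.20 for JUND (adjusted p = 2.2e-07) and 3.14 for FOSB (adjusted p = 3.7e-07). That of FOS, given without a p-value, was 3.35. IER2, at 0.34 (adjusted p = 0.0051), also differed between the lines but was short of the size limit. At 24 h, 1 of the 9 was changed (1.41% of all genes), FOSB at 1.12 (adjusted p = 0.012), which was 0.86 and no longer changed without the second HepG2 library of 24 h. The difference of FOS, given without a p-value, was 1.84. At that time the lines were not shown to differ for JUNB (0.12, 95% interval -0.10 to 0.35), JUND (0.04, 95% interval -0.22 to 0.29) and ATF3 (-0.21, 95% interval -0.56 to 0.14). These differences share their libraries with the comparisons of the lines given above.

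The makeup of the FOS family by transcripts is given as shares of the summed FPKM of 4 genes, as a description; FOSL1, which encodes FRA1, is added to complete the family. In APOA4-KO, FOSL2 made up 49.9% ± 2.47 (SD, n = 3) at 0 h and 72.5% ± 1.33 at 48 h, and FOSL1 45.9% ± 2.20 and 12.7% ± 1.16. FOS made up 2.74% ± 0.378 and 12.51% ± 0.438. In HepG2 the shares of FOSL2 and FOSL1 went the same way but less far, FOSL2 from 43.7% ± 1.57 to 55.6% ± 0.378 and FOSL1 from 52.5% ± 1.85 to 40.5% ± 1.14, and FOS made up 2.09% ± 0.351 and 2.90% ± 1.12. FOSB was at or below 2.40% in every library. The level of FOSL1 was not shown to differ between the lines at 48 h, with 12.04 CPM in APOA4-KO, 11.97 CPM in HepG2 and a log2 fold change of 0.01 (95% interval -0.18 to 0.19, adjusted p = 0.951). The family sum was 13.2 ± 0.475 FPKM in HepG2 and 13.8 ± 0.482 FPKM in APOA4-KO at 0 h, and 15.7 ± 0.749 FPKM and 45.6 ± 0.480 FPKM at 48 h.

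Among the JUN genes, JUND was the most abundant in all 6 groups. It made up 71.4% ± 0.580 of the summed FPKM in HepG2 before hypoxia and 65.2% ± 2.48 after 48 h. Its share in APOA4-KO was 74.2% ± 2.36 before hypoxia and 50.6% ± 2.81 after 48 h, where JUNB made up 25.2% ± 0.949 and JUN 24.2% ± 2.08. The sum of the 3 genes was 90.1 ± 3.03 FPKM in HepG2 and 61.6 ± 3.67 FPKM in APOA4-KO at 0 h, and 73.7 ± 4.59 FPKM and 137.6 ± 10.5 FPKM at 48 h. In every group the JUN sum exceeded the FOS sum.

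**Figure D4:**
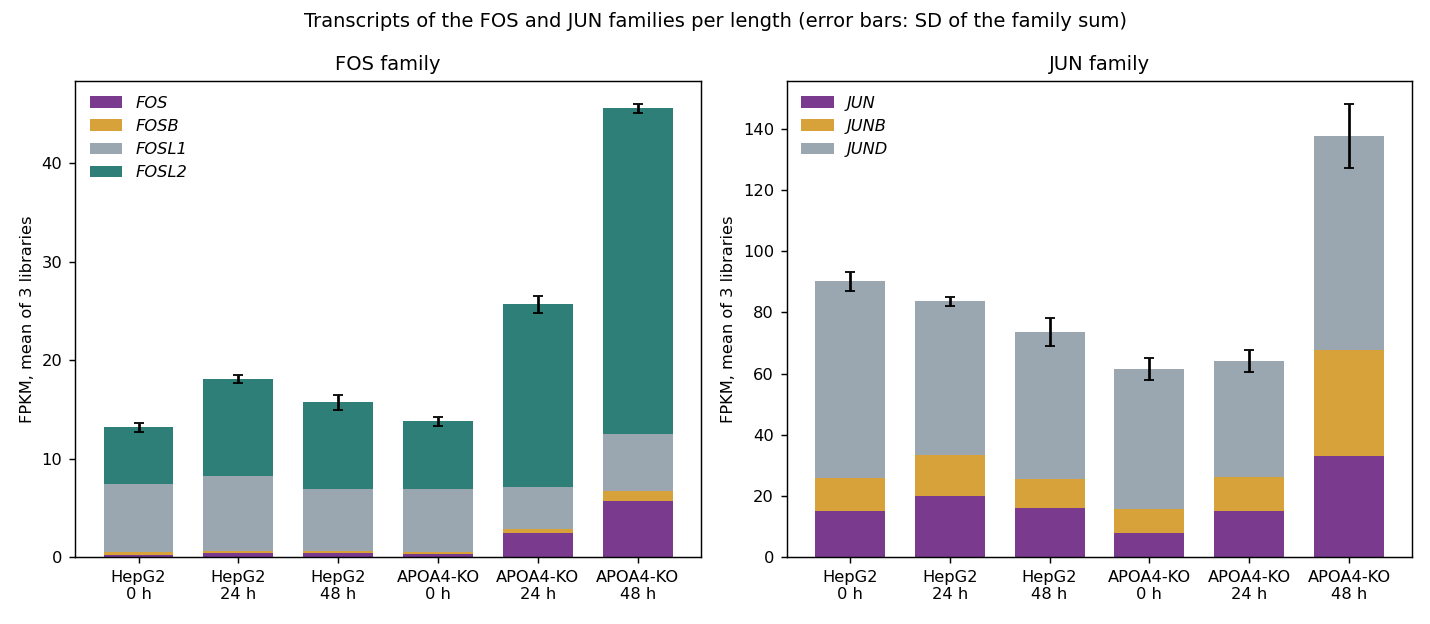
Summed FPKM of the 4 FOS genes (left) and the 3 JUN genes (right) in the 6 groups, stacked by gene as means of 3 libraries, with the SD of the sum as error bars. The FOS sum reaches 45.6 FPKM and the JUN sum 137.6 FPKM in APOA4-KO at 48 h, and FOSL2 is the largest part of the first.

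Other genes of the pathway were counted in 6 lists written from general knowledge, with earlier results of these data known. Of 30 other immediate early genes, 13 were higher and none was lower in APOA4-KO at 48 h (6.37% and 7.18% of all genes), with a median log2 fold change of 1.10 against -0.04 over all genes. With libraries scaled by total count alone, the median over all genes moved to -0.19, and 997 genes were higher and 1935 lower, against 1258 and 1418. CCN1 and CCN2, which encode matricellular proteins, stood at 3.36 (206 against 20.1 CPM, adjusted p = 1.0e-18) and 2.84 (2222 against 311 CPM, adjusted p = 1.9e-18). SIK1, a salt-inducible kinase, was at 2.36 (adjusted p = 1.2e-12), and the orphan receptor NR4A1 at 2.03 (adjusted p = 2.7e-14). At 0 h and at 24 h, 1 gene of this list was changed at each time, EGR2 and PLK3, both lower and both named after their values were seen. That was 3.33% of the list, against 4.31% of all genes at 0 h and 7.77% at 24 h. EGR2 had no count in APOA4-KO at 0 h.

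The feedback regulators, which are phosphatases and other proteins that shorten a signal, showed the highest share of changed genes of the 6 lists between the lines at 48 h. Of 15 tested, 9 were higher and none was lower at 48 h (6.37% and 7.18% of all genes), with a median of 1.43. The ERK and stress kinase phosphatase DUSP1 was at 3.05 (163 against 19.8 CPM, adjusted p = 2.3e-16), DUSP5 at 2.83 (adjusted p = 4.4e-10) and DUSP6 at 2.26 (adjusted p = 1.8e-18). ZFP36, whose product destabilizes AU-rich transcripts, was at 2.33 (adjusted p = 2.1e-16). None of these genes was changed at 0 h (4.31% of all genes). At 24 h 1 was higher and 1 lower (SPRED1 and DUSP8, named after their values were seen), 13.3% against 7.77% of all genes. In HepG2, none of the 15 was changed from 0 h to 48 h, where only 2.18% of all genes were.

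Of 29 genes of upstream signalling, 6 were higher and none was lower at 48 h (6.37% and 7.18% of all genes), with a median of 0.46. The growth factor genes HBEGF and AREG were at 2.48 (13.4 against 2.40 CPM, adjusted p = 1.9e-12) and 2.36 (6.89 against 1.34 CPM, adjusted p = 5.1e-08). BRAF, a kinase above ERK, was at 1.22 (adjusted p = 1.0e-09) and the receptor gene ERBB3 at 1.08 (adjusted p = 2.6e-17). Of the growth factor receptors, EGFR, named after its values were seen, was higher in APOA4-KO at 0 h (15.9 against 6.06 CPM, log2 fold change 1.39, adjusted p = 3.2e-08). It was also higher at 24 h, by 2.16 (adjusted p = 1.9e-11), and at 48 h, by 1.01 (adjusted p = 5.5e-07). In this list 2 genes were changed at 0 h (the other being BTC, with no count in HepG2) and 2 at 24 h (the other being AREG), all higher. That was 6.9% of the list at each time, against 4.31% of all genes at 0 h and 7.77% at 24 h.

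Of 15 other leucine zipper genes, 3 were higher and 1 was lower at 48 h (6.37% and 7.18% of all genes), with a median of 0.43. The 3 small MAF genes, whose products lack an activation domain, were all higher: MAFF stood at 2.56 (adjusted p = 2.7e-12), MAFK at 2.46 (adjusted p = 1.8e-14) and MAFG at 1.74 (adjusted p = 2.7e-16). BATF2 was at -1.42 (adjusted p = 1.5e-07). The genes known as AP-1 targets did not move one way: of 19 tested, 6 were higher and 2 lower, with a median of 0.20. The endothelin gene EDN1 was at 2.64 (adjusted p = 6.2e-11), the metallothionein gene MT2A at 1.77 (adjusted p = 6.7e-12) and the chemokine gene CXCL8 at 1.55 (adjusted p = 3.7e-05). EDN1 was lower in APOA4-KO at 24 h (log2 fold change -1.71, adjusted p = 2.2e-08). The 2 lower genes, named after their values were seen, were SPP1 at -1.31 (adjusted p = 4.7e-18) and HMOX1 at -1.49 (adjusted p = 7.2e-16). IL6 is one of the 6 higher genes, with 36 to 43 counts in APOA4-KO and none in HepG2 at 48 h. The target list already held 5 changed genes at 0 h (3 higher, 2 lower) and 5 at 24 h (4 higher, 1 lower), 26.3% at each time. The list of leucine zipper genes held 1 at 0 h (6.67%) and 2 at 24 h (13.3%), all lower. Over all genes, 4.31% were changed at 0 h and 7.77% at 24 h.

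Of the heat shock genes, another set that responds to stress, 5 of 11 were lower, 6 were not changed and none was higher at 48 h, with a median of -0.65 (7.18% of all genes were lower). HSPA8 was at -1.76 (adjusted p = 2.4e-21), HSPA1A at -1.69 (adjusted p = 3.8e-18), HSPA1B at -1.63 (adjusted p = 1.6e-18) and HSPH1 at -1.14 (adjusted p = 7.6e-11). HSPA1A and HSPA1B are near-identical copies, so the split of reads between them is uncertain. The summed heat shock level was 844 to 846 FPKM in HepG2 and 835 to 841 FPKM in APOA4-KO at 0 h, and 757 to 764 FPKM and 350.5 to 353.5 FPKM at 48 h. The sum was thus lowest in APOA4-KO at 48 h, and its part in the results of the members was not tested.

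**Figure D5:**
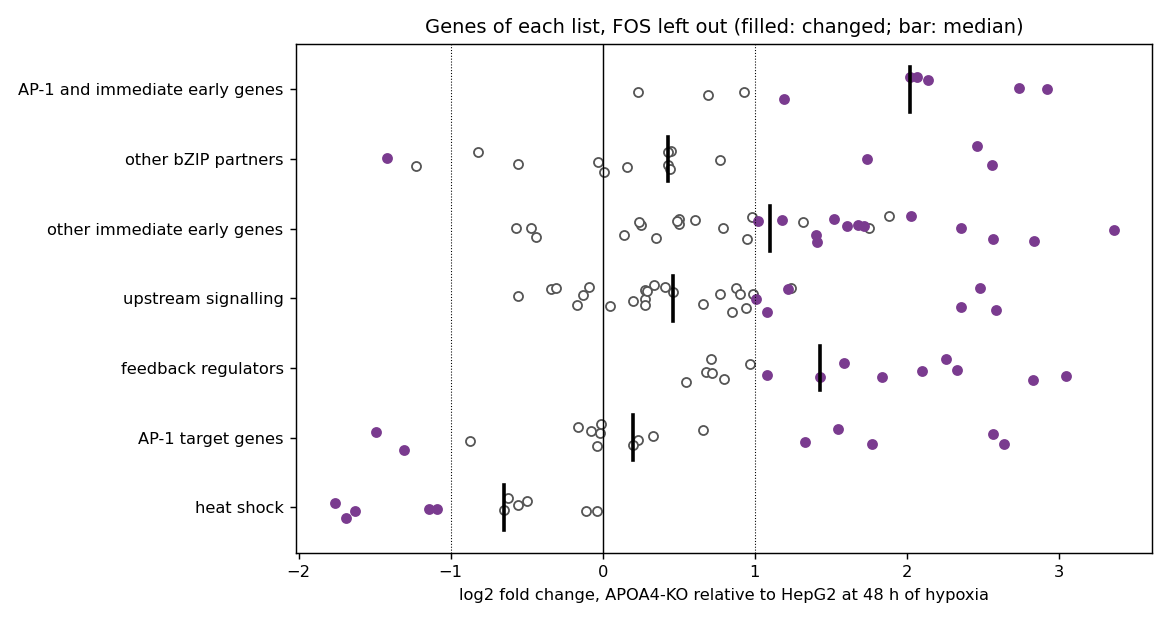
Log2 fold change of APOA4-KO relative to HepG2 at 48 h of hypoxia for the 9 members other than FOS and the tested genes of 6 lists. Filled points are changed genes, open points the others, and bars the list medians, from 2.02 for the members and 1.43 for the feedback regulators to -0.65 for heat shock; IL6 and MMP9, which have no count in 1 of the 2 groups, are not drawn.

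Across the 18 libraries, the genes that followed FOS most closely were IGF1R and YPEL2 (Pearson r = 0.986 for both), UIMC1 (0.984), HIVEP2 (0.982) and KDSR (0.982), out of 13145 other genes with a mean of at least 1 CPM. The r values are on log2 CPM, and the libraries are shared by all genes and fall into 6 groups, so these are a description of likeness only. HIVEP2 was at 13.9 ± 1.85 CPM in HepG2 and 16.0 ± 0.440 CPM in APOA4-KO at 0 h, and at 19.6 ± 0.248 CPM and 103 ± 4.30 CPM at 48 h. The growth factor receptor gene IGF1R was at 168 ± 4.46 CPM and 175 ± 3.83 CPM at 0 h, and at 181 ± 6.14 CPM and 339 ± 10.7 CPM at 48 h. Among the members, FOSL2 was most like FOS (r = 0.97), followed by EGR1 (0.88), FOSB (0.87) and IER3 (0.84). JUNB (0.78) and JUN (0.66) were less like it, and ATF3 (0.39), JUND (0.22) and IER2 (-0.05) least.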

How the data were processed

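Poly(A) RNA of HepG2 and APOA4-KO was sequenced at 0 h, 24 h and 48 h of hypoxia, with 3 libraries per group. Per the methods of the authors, fastp trimmed the reads, HISAT2 placed them on GRCh38.p13 and featureCounts gave counts for genes; StringTie is also named in the submitters' processing notes. The counts deposited are whole numbers without normalization between libraries. The deposited FPKM values divide each count by gene length and library total. Per the labels, a dUTP step marked the second strand; the kit named in the methods is not stated to keep the strand, nor is the strand setting of the counting.

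The tests on counts used edgeR 4.0.16 (R 4.3.3), with filterByExpr on the 6 groups, TMM scaling and a quasi-likelihood fit of all 18 libraries with a coefficient per group. There were 11 comparisons, with Benjamini-Hochberg adjustment over 19743 genes in each. The steps were tested on simulated data. CPM were used within a gene and FPKM between genes. Alternatives were DESeq2 1.42.0, other scalings, no filter, a robust fit, limma 3.58.1 on log2(FPKM + 1), a replicate block, and leaving out each library. The limits are an absolute log2 fold change of 1 and an adjusted p of 0.05.

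The members and lists were chosen with earlier results of these data known. No p is given for any member in the comparisons within APOA4-KO over time, or for FOS where APOA4-KO enters, since these contrasts chose the list. The text names all 10 members, APOA4, up to 4 genes per list (those with the largest absolute log2 fold change between the lines at 48 h among changed genes whose mean count was 50 or more in the line with the higher level) and the 5 genes most like FOS; others are said to be named after their values were seen. FOSL1 was added to complete its family. A gene that this rule names is not reported here.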

Additional observations from a re-analysis of the deposited data

Results flagged for a closer look

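The change from 0 h differed between the lines, by an interaction test in edgeR, at a size of 1 or more on the log2 scale for 8 of the 9 members tested, against 3.43% of all genes at 48 h in that direction; IER2, at 0.34 (adjusted p = 0.0051), was short of that size. At 48 h the difference on the log2 scale, APOA4-KO minus HepG2, was 3.14 for FOSB (adjusted p = 3.7e-07), 2.91 for IER3 (adjusted p = 1.3e-19), 2.55 for EGR1 (adjusted p = 1.3e-10), 2.49 for JUNB (adjusted p = 2.1e-12) and 2.13 for JUN (adjusted p = 2.4e-15). It was 1.84 for FOSL2 (adjusted p = 2.7e-15), 1.38 for ATF3 (adjusted p = 2.1e-06) and 1.20 for JUND (adjusted p = 2.2e-07). At 24 h it was 1.12 for FOSB (adjusted p = 0.012). Without the second HepG2 library of 24 h, that FOSB difference was 0.86 and no longer changed. In level at 48 h, all 3 APOA4-KO libraries lay above all 3 HepG2 libraries for each of these genes, as for 27.2% of all genes. This describes levels at 48 h and not the change from 0 h. FOS is left out because its values in APOA4-KO chose the list.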

How the results depend on the processing

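Here the limits are applied to FOS and to APOA4-KO over time too, only to compare settings. Those calls give no support for a rise, since these values chose the list. The 110 log2 fold changes of members kept their sign and their side of the limits with DESeq2, RLE size factors, no filter on low counts, a robust fit and a replicate block. With library size alone, JUND in APOA4-KO from 24 h to 48 h lost its call and 2 values, both of IER2, changed sign. With limma on log2(FPKM + 1), which left out FOSB, 94 of 99 values kept their side and 1 changed sign, and with a library left out 771 of 780 kept their side and 6 changed sign. The 9 values that changed sign were at most 0.26 in size, and none had an adjusted p under 0.05 with either setting. Replicate numbers did not pair the libraries (r from -0.144 to 0.0511 over 45 pairs of the same number), and the replicate block changed the count of upstream signalling genes at 0 h, from 2 to 1, and no call of a member. Without HepG2 48 h replicate 2, ATF3 at 48 h was changed at 1.08; JUND in APOA4-KO from 24 h to 48 h (1.02) lost its call in 4 alternatives. With limma, where FOSB is missing and the pseudocount lowers the change of low genes, the members changed numbered 0 in HepG2 from 24 h to 48 h, 4 in APOA4-KO in that interval and 1 for the line difference at 24 h, and the calls of JUN between the lines at 48 h (1.0) and of the line difference of ATF3 at 48 h (0.81) were lost. Without 1 library, the members changed between the lines at 24 h ranged from 1 to 2, in HepG2 at 24 h from 1 to 2, and for the line difference at 24 h from 1 to 2. The lower or higher counts came without HepG2 24 h replicate 3 (FOSB 1.27), without HepG2 24 h replicate 2 or HepG2 0 h replicate 2 (FOS up to 1.09), and without HepG2 24 h replicate 2 (FOSB 0.86).

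Of the lists, limma gave 0 changed leucine zipper genes and 0 other immediate early genes at 0 h and 24 h, 0 and 2 upstream genes at 0 h and 48 h, 0 feedback regulators at 24 h, and 1, 2 and 5 AP-1 targets at 0 h, 24 h and 48 h. Upstream genes numbered 1 at 0 h without a filter and 5 at 24 h with library size alone; feedback regulators numbered 1 at 24 h with DESeq2 and RLE. Without 1 library, the counts at 0 h ranged from 0 to 2 for leucine zipper genes, 1 to 3 for other immediate early genes, 1 to 2 for upstream genes and 3 to 5 for AP-1 targets, and at 24 h from 1 to 2 for other immediate early genes and for feedback regulators. These counts moved without HepG2 0 h replicates 1, 2 or 3, APOA4-KO 0 h replicates 1 or 2, and APOA4-KO 24 h replicate 1. Over all genes, limma called 143, 326 and 757 between the lines at 0 h, 24 h and 48 h, against 851, 1535 and 2676 by edgeR. In HepG2 (24 h against 0 h, 48 h against 0 h, 48 h against 24 h) it called 103, 82 and 51 against 608, 430 and 418, in APOA4-KO 281, 670 and 138 against 1160, 2407 and 1117, and for the line difference at 24 h and 48 h 106 and 426 against 512 and 1464. With library size alone, the median of all genes at 48 h moved to -0.19, and 34.0% of changed genes were higher against 47.0%. The causes were not tested.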
